A study of Mus musculus with 2 samples.

Results

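The genes of zinc handling described here were followed in RNA sequencing counts from mouse pancreatic islet preparations, and were taken by name from the deposited table, 10 of its 44713 genes. They are the metallothioneins Mt1 and Mt2, the zinc exporters Slc30a1, Slc30a2, Slc30a5 and Slc30a7, and the zinc importers Slc39a5, Slc39a7, Slc39a11 and Slc39a14. The db/db library came from C57BL/6 mice labelled Lepr-/-, a leptin receptor genotype known for obesity and diabetes, and the db/m library came from C57BL/6 control mice labelled wild type. The name db/m usually stands for a heterozygote, so the label and the name do not state the same genotype. Age, sex, treatment and the number of animals behind a library are not given in the labels. Of a design described as triplicate, 1 library per group was analysed here, with 18233695 counts for db/db and 16271129 counts for db/m, so no difference has a replicate check and no p-value is given. Levels are in CPM, each count relative to the size of its library, after scaling by the trimmed mean of M values (TMM). Each ratio of db/db over db/m carries a 95% interval for counting error alone, and it describes these 2 libraries, not the genotypes.

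Zinc is held in cells at a very low free concentration. Transporters of the ZnT family, encoded by Slc30 genes, move zinc out of the cytosol, either across the plasma membrane or into organelles and secretory vesicles. Transporters of the ZIP family, encoded by Slc39 genes, move it into the cytosol, and metallothioneins are small cysteine-rich proteins that bind zinc and copper there. The transcription factor MTF1 senses free zinc and activates the metallothionein genes and Slc30a1 through metal response elements in their promoters. In the pancreas, acinar cells pass zinc into the pancreatic juice and load it into carboxypeptidases, and beta cells store insulin with zinc in granules that carry the ZnT8 protein, the product of Slc30a8.

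The promoter windows of 4 genes known to be induced by zinc are shown with the letters of the metal response element core, the motif known to be bound by MTF1, wherever they occur. They come from RefSeq on GRCm38.p6, and each runs from 250 bases before to 50 bases after an annotated start, read 5′ to 3′ on the strand of the gene. The windows are chr8:94178839-94179138 for Mt1, chr8:94172368-94172667 for Mt2, chr1:191906531-191906830 for Slc30a1 and chr4:134343216-134343515 for Slc30a2, all on the plus strand. The Slc30a2 window belongs to a start downstream of the first base of the gene, so the whole window and its matches lie inside the annotated gene. The windows of Mt1 and Slc30a1 also belong to starts downstream of the first base of their genes. They begin before the gene, but all their matches lie inside it. Of the windows shown, only that of Mt2 is set at the first base of its gene. Capitals mark matches to the element's core of 7 bases, searched as TGCACNC and TGCGCNC on both strands.
Mt1: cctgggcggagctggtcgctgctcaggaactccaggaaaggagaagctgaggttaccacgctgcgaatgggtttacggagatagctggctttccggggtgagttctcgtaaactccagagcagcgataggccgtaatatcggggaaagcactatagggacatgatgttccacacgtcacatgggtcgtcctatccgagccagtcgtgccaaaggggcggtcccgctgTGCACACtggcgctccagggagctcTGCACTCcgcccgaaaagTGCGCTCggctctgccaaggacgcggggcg
Mt2: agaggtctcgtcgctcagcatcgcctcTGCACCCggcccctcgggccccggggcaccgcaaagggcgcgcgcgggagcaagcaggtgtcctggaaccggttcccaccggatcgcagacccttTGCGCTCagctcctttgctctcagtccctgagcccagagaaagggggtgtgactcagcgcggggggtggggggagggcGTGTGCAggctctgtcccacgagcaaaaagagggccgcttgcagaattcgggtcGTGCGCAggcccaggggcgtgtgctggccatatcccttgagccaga
Slc30a1: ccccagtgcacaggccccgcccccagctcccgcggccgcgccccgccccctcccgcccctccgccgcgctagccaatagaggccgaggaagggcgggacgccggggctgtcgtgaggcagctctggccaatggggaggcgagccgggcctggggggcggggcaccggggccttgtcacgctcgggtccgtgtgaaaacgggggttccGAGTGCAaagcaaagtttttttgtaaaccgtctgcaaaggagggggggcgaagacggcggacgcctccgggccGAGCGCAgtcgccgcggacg
Slc30a2: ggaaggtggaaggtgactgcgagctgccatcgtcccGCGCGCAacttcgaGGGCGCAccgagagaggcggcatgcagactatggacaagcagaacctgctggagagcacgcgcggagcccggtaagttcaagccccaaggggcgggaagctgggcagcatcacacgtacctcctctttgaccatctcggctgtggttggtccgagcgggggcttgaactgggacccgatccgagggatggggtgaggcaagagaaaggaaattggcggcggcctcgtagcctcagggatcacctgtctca

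The Mt2 window held 4 matches and the Mt1 window 3, while the windows of Slc30a1 and Slc30a2 held 2 each. Such counts were not particular to these genes, since the windows of Slc30a4 and Slc30a10, outside the 10, held 3 each. Among all 32851 windows of 300 bases in the table, 25.7% held at least 1 match, 7.11% at least 2, 1.97% at least 3 and 0.517% at least 4. Windows were listed for 9 of the 10 genes, 11 windows in all, because Slc39a5 and Slc39a11 have a pair each. At least 1 match was found in 8 of the 11 windows, and 3 windows held none, those of Slc30a7 and Slc39a7 and one of Slc39a5. Slc39a14 has no listed window. A match is a run of letters and was not tested as a binding site.

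All 10 genes were well above the detection limit, with a mean of at least 10 CPM. A gene was called higher or lower in the db/db library when its ratio was at least 2-fold, its mean was at least 1 CPM before scaling and its interval excluded 1. By this rule 1 of the 10 was higher (Slc30a2), 0 were lower and 9 were neither. Of all 10300 genes compared, 395 (3.83%) were called higher and 416 (4.04%) lower under TMM, a split of 48.7% higher calls that became 67.1% with total counts. The share of the 10 genes called higher rests on Slc30a2 alone. By the interval alone, 6 of the 10 lay above 1, 2 lay below and 2 included 1. With an interval widened for the number of genes compared (Bonferroni), that of Slc30a7 included 1 as well (0.973 to 1.97). Among the 4148 genes with at least 10 CPM, 28.9% had an interval above 1 and 23% an interval below 1. The log2 ratios of the 10 genes ran from -0.79 (Mt2) to 1.14 (Slc30a2) with a median of 0.27, while the median of all genes compared was 0.02. Scaling by total counts raises every log2 ratio by 0.18. The 2 lower intervals stayed below 1 under each of the 5 scalings tried. The 6 higher ones stayed above 1 too, but no scaling lowered the ratios by much. Relative to TMM, DESeq2 size factors moved every log2 ratio by -0.008, and the other alternatives raised them. The 6 higher intervals were thus not put to a check. Slc39a14 joined the higher ones with total counts and with acinar scaling. Under total counts 50.7% of all genes with at least 10 CPM lay above 1.

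**Figure D1:**
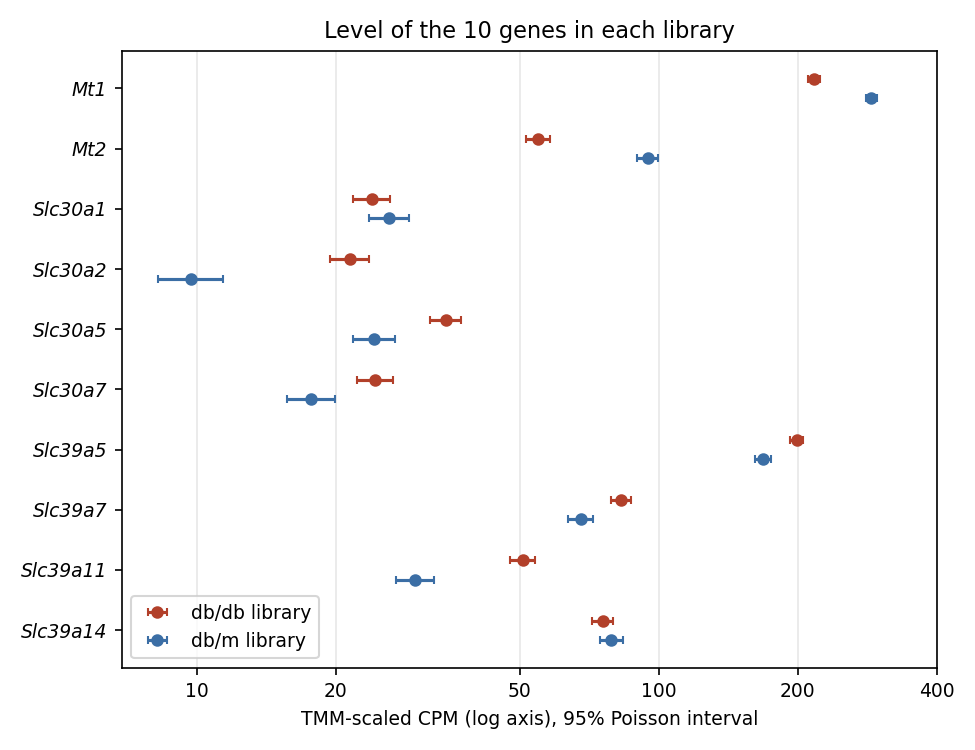
TMM-scaled CPM of the 10 genes on a log axis, with the db/db library in red above the db/m library in blue and bars giving 95% Poisson intervals of the counts. The db/db points of Slc30a2, Slc30a5, Slc30a7, Slc39a5, Slc39a7 and Slc39a11 lie to the right of the db/m points, and those of Mt1 and Mt2 to the left. Heights of different genes are not comparable, because CPM is not divided by transcript length.

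Among the exporters in the set of 10, Slc30a2 had the ratio farthest from 1. It encodes ZnT2, a vesicular zinc transporter that in mouse acinar cells sits on zymogen granules, and lies on chromosome 4 (134343046 to 134354484 in GRCm38). It had 416 counts in the db/db library, a level of 21.5 CPM, against 149 counts in the db/m library, a level of 9.73 CPM. The db/db level was 2.21-fold higher (1.83 to 2.68), so the interval reached below the 2-fold limit. Of all genes compared, 97.1% had a lower ratio than Slc30a2.

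Slc30a5 and Slc30a7 encode ZnT5 and ZnT7, which carry zinc into the early secretory pathway, where enzymes such as alkaline phosphatase receive it. Slc30a5 (chromosome 13, 100802645 to 100833480) had 671 counts in db/db and 371 counts in db/m, which gave 34.6 CPM in db/db and 24.2 CPM in db/m. Slc30a7 (chromosome 3, 115938973 to 116007414) had 472 counts in db/db and 271 counts in db/m, which gave 24.4 CPM in db/db and 17.7 CPM in db/m. Their ratios were close together, at 1.43-fold (1.26 to 1.63) for Slc30a5 and 1.38-fold (1.18 to 1.6) for Slc30a7, and both stayed under the 2-fold limit. Slc30a6, whose product ZnT6 works as a partner of ZnT5, had 83 counts in db/db and 56 counts in db/m. Its ratio of 1.17 had an interval of 0.825 to 1.67, which holds both no difference and the ratio of Slc30a5.

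Slc30a1 encodes ZnT1, the exporter of the plasma membrane, and lies on chromosome 1 (191906697 to 191913248). It had 464 counts in the db/db library, a level of 23.9 CPM, and 399 counts in the db/m library, a level of 26.1 CPM. The ratio of 0.919 (0.802 to 1.05) was not distinguishable from 1 by counting error, and with total counts it was 1.04. Set against each other within a library, where scaling plays no part, there were 0.897 Slc30a2 counts per Slc30a1 count in the db/db library (0.784 to 1.03) and 0.373 in the db/m library (0.307 to 0.452). The intervals of these quotients do not overlap. The pair holds the highest and the lowest ratio among the exporters of the set, so this is no separate support for a difference. A long non-coding gene, 1700034H15Rik, overlaps 831 bases of Slc30a1 and had 19 counts in db/db and 21 counts in db/m. No source used here says whether strand was used, so reads in such overlaps cannot be assigned to one gene with certainty.

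The ratios of the importers ran from 0.958 for Slc39a14 to 1.71 for Slc39a11. Slc39a11 encodes ZIP11, a member of a separate branch of the ZIP family, and spans chromosome 11 from 113244851 to 113650200. It had 983 counts in the db/db library, a level of 50.7 CPM, against 455 counts in the db/m library, a level of 29.7 CPM. The ratio was 1.71-fold (1.53 to 1.91), above that of 93.7% of the genes compared and under the 2-fold limit, and it reached 2.01-fold when the libraries were scaled to the summed acinar markers. The long span also covers the somatostatin receptor gene Sstr2, with 64 counts in db/db and 59 counts in db/m, and overlaps 1023 bases of Cog1, with 339 in db/db and 261 in db/m. Sstr2 and Cog1 were counted under their own names. Long non-coding genes inside the span, such as Gm51926 over 20929 bases, have no entry in the counts, so where their reads went is not known.

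Slc39a5 encodes ZIP5, a transporter of the basolateral membrane of mouse acinar and intestinal cells (chromosome 10, 128395927 to 128401276). It had 3858 counts in db/db and 2580 counts in db/m, which gave 199 CPM in db/db and 168 CPM in db/m. The ratio of 1.18 (1.12 to 1.24) had a narrow interval because of the high counts, and 71.5% of genes compared had a lower one. Slc39a7 encodes ZIP7, which releases zinc from the endoplasmic reticulum and Golgi into the cytosol (chromosome 17, 34028266 to 34031690). It had 1609 counts in db/db and 1038 counts in db/m, which gave 83.0 CPM in db/db, 67.8 CPM in db/m and a ratio of 1.23 (1.13 to 1.33). With 1 library per group there is no spread between animals against which to read differences of this size.

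Slc39a14 encodes ZIP14, an importer of zinc, iron and manganese that is induced by interleukin-6 in the liver (chromosome 14, 70303467 to 70351452). It had 1465 counts in the db/db library, a level of 75.6 CPM, and 1209 counts in the db/m library, a level of 79.0 CPM. The ratio was 0.958 (0.887 to 1.03), and with total counts it was 1.08 (1 to 1.17), so its direction depended on the scaling. Within a library, there were 0.671 Slc39a11 counts per Slc39a14 count in db/db (0.618 to 0.728) and 0.376 in db/m (0.337 to 0.42), and these intervals do not overlap. This pair holds the highest and the lowest ratio among the importers of the set, so it too is no separate support.

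**Figure D2:**
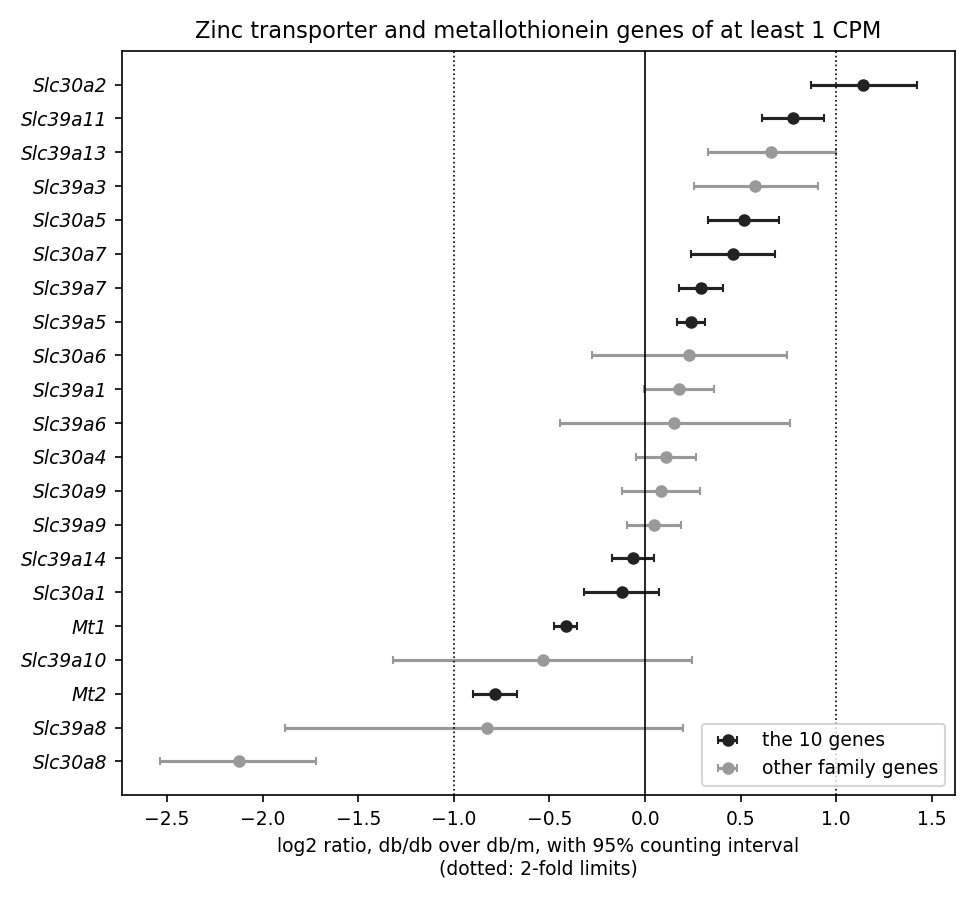
Log2 ratio of db/db over db/m for the 21 metallothionein, Slc30 and Slc39 genes that averaged 1 CPM or more, with 95% counting intervals, the 10 genes in black, the others in grey and dotted lines at the 2-fold limits. Slc30a2 lies past the upper limit and Slc30a8 past the lower one, while the other 19 genes lie between them.

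Mt1 and Mt2 were the genes of the 10 whose intervals lay below 1. The ratios of Slc30a1 and Slc39a14 were also below 1 under TMM, with intervals that include 1. Mt1 (chromosome 8, 94178883 to 94180327) had 4196 counts in the db/db library, a level of 217 CPM, against 4424 counts in the db/m library, a level of 289 CPM, a 1.33-fold lower level in db/db (1.28 to 1.39). Mt2 (chromosome 8, 94172618 to 94173567) lies upstream, with 5315 bases between the neighbours. It had 1063 counts in the db/db library, a level of 54.9 CPM, against 1449 counts in the db/m library, a level of 94.6 CPM, a 1.72-fold lower level in db/db (1.59 to 1.87). Neither reached the 2-fold limit, and both stayed lower under all 5 scalings, with ratios up to 0.881 for Mt1 and 0.681 for Mt2. Of all genes compared, 16.4% had a lower ratio than Mt1 and 6.29% a lower ratio than Mt2. These neighbours did not share one ratio, since there were 0.253 Mt2 counts per Mt1 count in the db/db library (0.237 to 0.271) and 0.328 in the db/m library (0.308 to 0.348). Mt3, the metallothionein of brain, had 11 counts in db/db and 2 counts in db/m, a ratio of 4.35 with an interval of 0.949 to 40.4. Mt4, the metallothionein of squamous epithelium, had 0 counts in both libraries, where the floor of 3 counts stands at 0.155 CPM in db/db and 0.196 CPM in db/m.

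The wider families gave 28 genes, of which 4 had 0 counts in both libraries (Mt4, Slc30a3, Slc30a10 and Slc39a12), 3 were detected under 1 CPM (Mt3, Slc39a2 and Slc39a4) and 21 were compared. Among these 21, Slc30a2 was called higher, Slc30a8 was called lower and 19 were neither, with a median log2 ratio of 0.15. All genes compared had 3.83% called higher and 4.04% lower, with a median of 0.02. Slc30a8, the zinc transporter of the insulin granule, had 66 counts in db/db (3.41 CPM) and 227 counts in db/m (14.8 CPM), a 4.35-fold lower level in db/db (3.3 to 5.81). Among the 18 family genes outside the 10, the interval lay above 1 for Slc39a3 (1.49-fold, 1.19 to 1.87) and for Slc39a13 (1.58-fold, 1.26 to 2), and below 1 for Slc30a8. The product of Slc39a13, ZIP13, is a transporter of the early secretory pathway. The other 8 compared genes had intervals that include 1. Among them Slc30a4, which encodes the vesicular ZnT4, had 781 counts in db/db and 573 counts in db/m (1.08-fold, 0.966 to 1.2), and Slc30a9 had 463 in db/db and 346 in db/m (1.06-fold, 0.918 to 1.22). Slc39a1, whose product ZIP1 imports zinc at the plasma membrane, stood at 1.13-fold (0.996 to 1.29) and Slc39a9 at 1.03-fold (0.937 to 1.14). Slc30a6, Slc39a6, Slc39a8 and Slc39a10 had between 15 and 83 counts in a library, and the intervals at the lowest counts were wide, at 0.271 to 1.15 for Slc39a8 and 0.401 to 1.19 for Slc39a10.

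Shares within a family do not depend on how the libraries are scaled, but a share also moves when other members of the family change. Slc30a2 made up 12.2% of the Slc30 counts in the db/db library (exact binomial interval 11.1% to 13.3%) and 6.23% in the db/m library (5.29% to 7.27%). Slc30a8 made up 1.93% in the db/db library (1.5% to 2.45%) and 9.49% in the db/m library (8.34% to 10.7%). The shares of Slc30a5 were 19.6% in db/db and 15.5% in db/m, those of Slc30a7 13.8% in db/db and 11.3% in db/m, and those of Slc30a1 13.6% in db/db and 16.7% in db/m. For each of these 5 genes the intervals of the libraries did not overlap, whereas those of Slc30a4, Slc30a6 and Slc30a9 did. Slc30a1 is among the 5 although the interval of its ratio included 1 (0.802 to 1.05). Shares were not computed over all genes. For ratios, 28.9% of all genes with at least 10 CPM had an interval above 1 and 23% an interval below 1. In the Slc39 family the intervals were apart for Slc39a11, with 9.77% in db/db (9.2% to 10.4%) and 6.7% in db/m (6.12% to 7.32%), and for Slc39a14, with 14.6% in db/db (13.9% to 15.3%) and 17.8% in db/m (16.9% to 18.7%). The ratio of Slc39a14 likewise had an interval that included 1 (0.887 to 1.03). The largest Slc39 share, that of Slc39a5, was 38.3% in db/db and 38% in db/m, with overlapping intervals. Mt2 made up 20.2% of the metallothionein counts in the db/db library (19.1% to 21.3%) and 24.7% in the db/m library (23.6% to 25.8%).

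**Figure D3:**
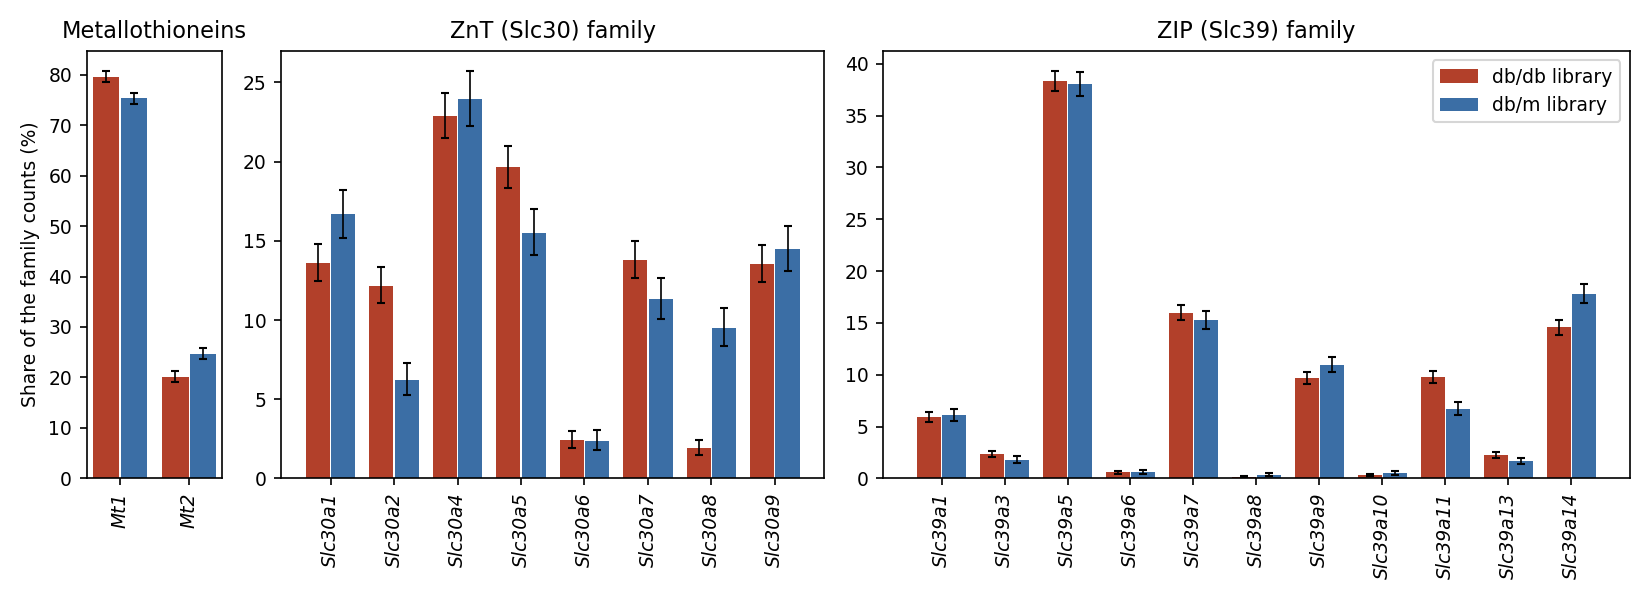
Share of each gene in the summed counts of its family, in percent, with the db/db library in red to the left of the db/m library in blue and bars giving exact 95% binomial intervals. The scale differs between the 3 panels, and genes under 1 CPM are not drawn. Within the Slc30 family Slc30a2 takes 12.2% in db/db and 6.23% in db/m, and Slc30a8 1.93% in db/db and 9.49% in db/m.

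The families as sums differed less than some of their members. The summed Slc30 level was 176 CPM in db/db and 156 CPM in db/m, a ratio of 1.13 (1.07 to 1.19). The summed Slc39 level was 519 CPM in db/db and 443 CPM in db/m, a ratio of 1.17 (1.14 to 1.21). The summed metallothionein level was 272 CPM in db/db and 384 CPM in db/m, a 1.41-fold lower level in db/db (1.36 to 1.46).

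MTF1 itself and genes known to be linked to it were read beside the metallothioneins. Mtf1 had 177 counts in db/db and 114 counts in db/m, a ratio of 1.23 with an interval of 0.964 to 1.57. Of the 11 genes of this list in the table, which include Mt1, Mt2 and Slc30a1, 0 were called higher, 1 was called lower and 10 were neither. Shares over all genes compared were 3.83% higher and 4.04% lower. The list's median was -0.12 on the log2 scale, where all compared genes had 0.02, and it changed sign with total counts, which add 0.18 to both. The lower gene was Gclc, the catalytic subunit of the first enzyme of glutathione synthesis, with 245 counts in db/db and 590 counts in db/m, a 3.05-fold lower level in db/db (2.62 to 3.55).

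**Figure D4:**
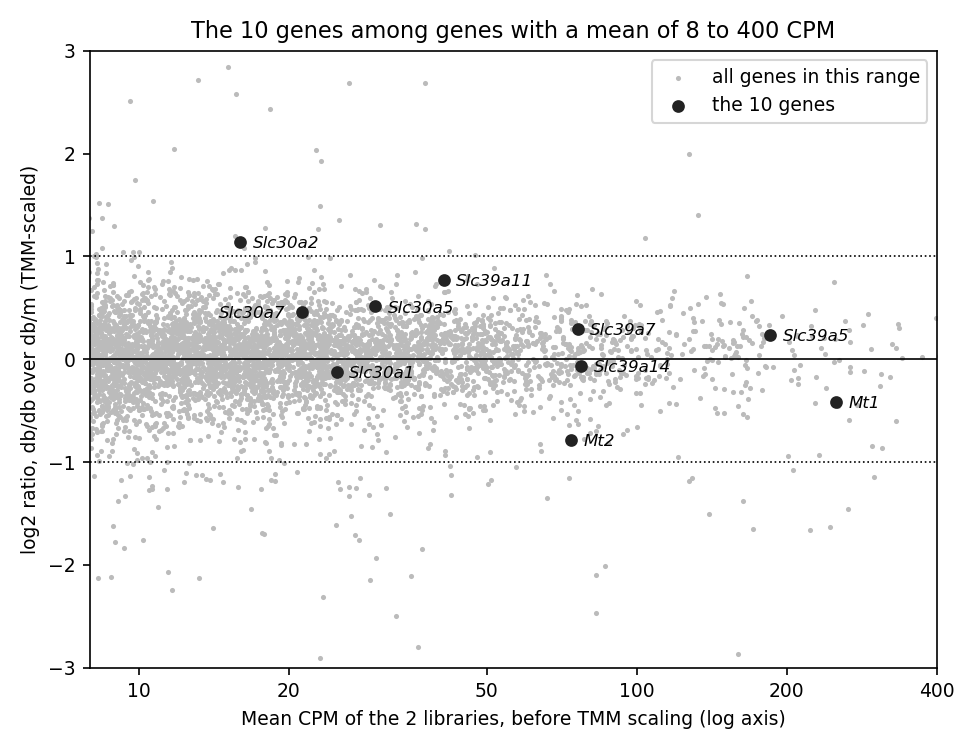
Log2 ratio of db/db over db/m against mean CPM on a log axis for genes with a mean of 8 to 400 CPM, in grey, with the 10 genes in black and dotted lines at the 2-fold limits. Of the 4827 genes in this range, 21 lie beyond the drawn axis of -3 to 3. Slc30a2 lies just past the upper limit and the other 9 genes lie between the limits.

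Enzymes that receive zinc in the secretory pathway, the zinc-regulated chaperone Erp44 and the sulfhydryl oxidase Qsox1 formed a further list of 16 genes. Of the 16, 12 were compared. Of these, 2 were called higher, 0 lower and 10 neither, against 3.83% higher and 4.04% lower over all genes compared. The median log2 ratio of -0.08 also changed sign with total counts. With an interval lying wholly beyond 2-fold, a 4-fold limit or a filter of 10 CPM, 0 of the list were called. The higher genes were Enpp2, which encodes autotaxin, with 139 counts in db/db and 50 counts in db/m (2.2-fold, 1.58 to 3.1), and Cpm, which encodes carboxypeptidase M, with 237 in db/db and 91 in db/m (2.06-fold, 1.61 to 2.65). The abundant zinc carboxypeptidases of acinar cells stood at 0.886-fold for Cpa1 (0.883 to 0.888) and 0.815-fold for Cpb1 (0.813 to 0.817). Erp44 stood at 1.07-fold (0.958 to 1.19).

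The preparations were labelled as islet cells, and markers of the exocrine pancreas took most of both libraries. The share of 10 acinar markers was 50.1% in db/db (50.12% to 50.17%) and 52.2% in db/m (52.17% to 52.22%), and that of 9 beta cell markers 0.165% in db/db (0.163% to 0.167%) and 0.146% in db/m (0.144% to 0.148%). In bulk RNA, fewer cells of a type and less RNA per cell cannot be told apart. Under TMM, the summed level of the acinar markers was 1.18-fold lower in db/db (1.17 to 1.18) and that of 9 duct markers 1.45-fold lower (1.4 to 1.51). That of the beta cell markers stood at a ratio of 1 (0.983 to 1.02), although 6 of the 9, Slc30a8 among them, were called lower. Total counts raise such ratios by 0.18 on the log2 scale. Of the acinar markers, 8 ratios lay below 1 and 2 above, Ctrb1 (1.02) and Clps (1.21). Krt18, Muc1 and Krt8 had the highest counts of the duct list. Of the 8 compared duct genes, 6 had intervals below 1. The other 2, Krt19 (1.22) and Krt7 (1.28), had ratios above 1 with intervals that include 1. Of single markers, 1 of 10 acinar and 0 of 8 compared duct genes were called lower, and none of either list higher. For these and the other lists here, the shares over all genes compared were 3.83% higher and 4.04% lower. Alpha cell markers summed to a 3.68-fold higher level in db/db (3.42 to 3.95), with 2 of 3 compared genes called higher. The sum for delta and PP cells was higher by 6.14-fold (5.37 to 7.04), with 3 of 4 called higher. The summed level of 20 immediate early genes was 6.46-fold lower in db/db (6.22 to 6.72) and that of 9 heat shock genes 6.59-fold lower (6.39 to 6.79), with 15 of 17 compared immediate early genes and 9 of 9 heat shock genes called lower. Markers of macrophages, endothelium, stellate cells and lymphocytes had sums between 45 and 161 counts in a library, those of red cells and adipocytes between 0 and 12, and Adipoq, Cfd and Alas2 had 0 counts in both libraries. The part of these shifts in the ratios of the zinc genes was not tested. Lepr had 3 counts in db/db and 4 counts in db/m, and such whole-gene counts say nothing about the genotype label.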

How the data were processed

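Per the labels' protocols, islets were freed with collagenase, purified on a Histopaque gradient and extracted directly, and ribosomal RNA was depleted from total RNA. HISAT2 2.0.4 and the builds mm10 and GRCm38 are named in the submitters' processing notes. The counting program, annotation and strand setting were not given in the sources used here. In the table deposited by the authors, raw counts are whole numbers, 1 column for each library, and 25827 genes are without a count in either.

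From these counts, CPM was computed with TMM factors from edgeR 4.0.16 (R 4.3.3). Clopper-Pearson intervals for ratios and shares and Poisson intervals for levels, at the 95% level, came from scipy 1.17.1 (Python 3.11.15, numpy 2.4.6, pandas 2.3.3). They cover counting error only, and PCR copies are not separate molecules. A count of 0 was read against a floor of 3 counts. The call rule was tested on simulated counts. With 1 library per group no test of the genotypes could be made, and the groups follow the library titles. Alternatives were 4 other scalings (DESeq2 1.42.0 size factors among them), 2 filters, 2 fold limits and 2 interval rules. The 23 gene lists cover the 10 genes, the 3 zinc families, 4 further sets of metal genes, acute-phase, glucocorticoid, immediate early and heat shock genes, and markers of 11 cell types. The table held 216 of the 218 entries. The 10 genes and the lists were chosen with earlier results of these data known. Named were the 10 genes, family genes with at least 1 CPM and Slc30a8, called genes of other metal lists with at least 5 CPM (at most 4 a list), and abundant markers, while other names were chosen after their values were seen. Levels were not compared between genes, because the annotation used here gives gene spans and not transcript lengths. Positions and promoters are from RefSeq (GRCm38.p6), matched by symbol. Figures were drawn with matplotlib 3.10.9.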

Additional observations from a re-analysis of the deposited data

How the results depend on the processing

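Slc30a2 was the 1 called gene of the 10, and the same gene was called with total counts, DESeq2 size factors, total counts without acinar marker and hormone genes, no filter, a filter of 10 CPM and a Bonferroni interval. The 10 genes all average at least 10 CPM, so the filters could not change a call among them. The scalings by total counts, with or without those genes, only raise the ratio of Slc30a2. Scaling to the summed acinar markers called 2 (Slc39a11 added), and a 1.5-fold limit called 3 (Slc39a11 and Mt2 added). A 4-fold limit and an interval lying wholly beyond 2-fold called 0 of the 10, since both ask for a larger difference. Over the 28 family genes, 2 were called, against 5 with the 1.5-fold limit and 1 each with the 4-fold limit, the interval beyond 2-fold and the filter of 10 CPM, which leaves Slc30a8 out of the comparison. Over all genes, 811 were called, against 1595 with no filter, 131 with the filter of 10 CPM, 1803 with the 1.5-fold limit, 154 with the 4-fold limit, 236 with the interval beyond 2-fold and 351 with the Bonferroni interval. Of the calls, 48.7% were higher, against 67.1% with total counts, 60.5% without acinar marker and hormone genes, 73.0% with acinar scaling and 27.5% with the filter of 10 CPM. Slc30a1 and Slc39a14, neither called, had ratios on the other side of 1 with total counts (1.04 and 1.08) and acinar scaling (1.08 and 1.13), and Slc39a14 also without acinar marker and hormone genes (1.04). No paired analysis was possible because each group has 1 library, and leaving out a library leaves no comparison. A count is worth 0.0516 CPM in db/db and 0.0653 CPM in db/m, which limits genes of a few counts.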

Other observations

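Of 20 genes of iron and copper handling, 17 were compared. In db/db 1 of them was called higher and 0 lower, 16 were neither, and the median log2 ratio of 0.13 compares with 0.02 over all genes. Shares called over all genes compared were 3.83% higher and 4.04% lower. The called gene was Atox1, which encodes a copper chaperone, with 54 counts in db/db and 14 counts in db/m (3.05-fold, 1.67 to 5.94). This call was lost with the Bonferroni interval, the interval beyond 2-fold, the 4-fold limit and the filter of 10 CPM, each of which called 0 of the list. With the 1.5-fold limit 4 of the 17 were called higher (Atox1, Commd1, Slc11a2 and Slc31a2) and 0 lower, where 889 of all 10300 genes were called higher and 914 lower. Atox1 lies under the level at which genes of these lists were to be named, and was named after its values were seen, as were the genes that follow. Slc11a2, which encodes the divalent metal importer DMT1, had 308 counts in db/db and 160 counts in db/m (1.52-fold, 1.25 to 1.85), and Slc31a2, which encodes a copper transporter of endosomes, had 404 in db/db and 209 in db/m (1.53-fold, 1.29 to 1.81). Sod1, the copper and zinc superoxide dismutase, was 1.47-fold lower in db/db (1.27 to 1.69), within the 2-fold limit. The transferrin receptor gene Tfrc stood at 0.885-fold (0.746 to 1.05) and the ferritin gene Fth1 at 1.02-fold (0.949 to 1.09). Of 8 other channels and transporters that pass zinc, 4 were compared and 0 were called in either direction, with a median of 0.38. Without the filter on low counts 2 of the 8 were called, Tmem163 higher with 16 counts in db/db and 2 in db/m (6.32-fold, 1.49 to 56.7) and Trpm2 lower with 1 in db/db and 12 in db/m (a ratio of 0.0659, 0.00154 to 0.445). With the 1.5-fold limit Slc11a2, which is on this list too, was called higher. Among the compared genes Trpm7 stood at 1.2-fold (1.09 to 1.31) and Mcoln1, a lysosomal channel, at 1.42-fold (1.11 to 1.81).

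Because Slc39a14 is an interleukin-6 target and metallothionein genes respond to glucocorticoids, both pathways were read as lists. Of 17 interleukin-6 and acute-phase genes, 8 were compared and 9 averaged under 1 CPM. Saa3, Hp, Orm1, Orm2, Fga and Fgg had 0 counts in both libraries. The compared genes were Il6ra, Il6st, Il1r1, Stat3, Socs3, Cebpb, Cebpd and Nfil3, so the list says nothing about acute-phase products. Of these 8, 0 were called higher, 3 lower and 5 neither, with a median log2 ratio of -0.57. Over all genes compared, 3.83% were called higher and 4.04% lower, and the median was 0.02. Lower levels in db/db were not particular to this list, since the sums of immediate early and heat shock genes were 6.46-fold and 6.59-fold lower. The lower genes were Socs3, the feedback inhibitor of this pathway, with 37 counts in db/db and 114 counts in db/m (3.9-fold lower, 2.67 to 5.81), Nfil3 with 82 in db/db and 231 in db/m (3.56-fold lower, 2.76 to 4.64) and Cebpd with 11 in db/db and 35 in db/m (4.03-fold lower, 2 to 8.79). Slc39a14 itself stood at 0.958-fold. Of 11 compared genes of the glucocorticoid receptor and its targets, 1 was called higher (Zbtb16, 2.56-fold, 2.19 to 3), 4 lower (Pdk4, Dusp1, Sult1a1 and Ddit4) and 6 neither, with a median of -0.50. Fkbp5, a direct target of the receptor, stood at 1.58-fold (1.45 to 1.72) and Tsc22d3, another, at 1-fold (0.874 to 1.15). Dusp1 is on the immediate early list too. The targets thus lay on both sides of 1, and their part in the metallothionein ratios was not tested.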
